A study of Mus musculus with 6 samples.

Results

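Genes for 34 lysosomal proteins were followed in large peritoneal macrophages of infected mice: hydrolases that digest sugars, sulfate esters and lipids, their helper proteins, and proteins of the lysosomal membrane. They were taken by gene symbol from the deposited table of 20336 genes, without cathepsins and without the proton pump, and all 34 were found and had enough counts to be tested. The cells came from PAC knockout mice (3 libraries) and from floxed control mice (3 libraries), and both groups had received E. coli in the peritoneal cavity 30 min before lavage and sorting by surface stain. PAC is the proton-activated chloride channel, listed here under its older gene symbol Tmem206. The control genotype is labelled PAC F/F, that is, floxed with no driver named. The knockout genotype is labelled Cxcr3-PAC-/-, whereas Cx3cr1 stands in the series' design text, so the driver is uncertain and its effect cannot be told apart from that of channel loss. The sources used here give no strain, sex or age, and do not say whether each library was a separate animal. All p-values thus rest on the spread among libraries within groups, which may be technical in part. Libraries of PBS-treated mice were not analysed here.

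Lysosomes receive most of their soluble enzymes through mannose 6-phosphate tags added in the Golgi, and they work at the acid pH kept by the vacuolar ATPase. In macrophages, phagosomes that have taken up bacteria mature by fusing with these compartments, so the same enzymes and membrane proteins reach the phagosome. Transcription of many lysosomal genes is driven by the factors TFEB and TFE3, which bind an E-box in their promoters.

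The libraries held 15981530 to 20648832 counts each. Tmem206 had 4.27 to 6.13 CPM (counts scaled to a common library size) in the knockout libraries and 6.33 to 12.2 CPM in the control libraries, without overlap. The log2 fold change was -0.75 (standard error, SE, 0.31), and the edgeR adjusted p over all tested genes was 0.997. In a two-sided exact permutation test p was 0.10, the lowest value possible with 3 libraries against 3. These counts cover the whole gene, not the deleted part alone. All 15 markers of the labelled cell type, large peritoneal macrophages, were detected in every library, with a summed level of 25183 to 28311 CPM in the knockout and 21735 to 27846 CPM in the control. Prg4 and Alox15 made up most of that sum, so it says little about the other markers. Of the 15, 11 were higher and 4 lower in the knockout, and 0 had an edgeR adjusted p under 0.05. Timd4 had 897, 976 and 337 CPM in the knockout against 481, 603 and 459 CPM in the control. Vsig4 had 305, 212 and 109 CPM in the knockout against 213, 236 and 222 CPM in the control. Aspa had 117, 109 and 77.8 CPM in the knockout against 71.0, 53.2 and 57.4 CPM in the control. Markers of small peritoneal macrophages and monocytes (10 of 10 in the table) summed to 77.8 to 110 CPM in the knockout and 136 to 249 CPM in the control. B cell markers (14 of 14) summed to 110 to 372 CPM in the knockout and 84.8 to 583 CPM in the control. Mast cell and eosinophil markers (9 of 12) summed to 140 to 252 CPM in the knockout and 56.8 to 147 CPM in the control. Hdc, histidine decarboxylase, made up most of that sum (216, 161 and 138 CPM in the knockout and 70.5, 52.2 and 139 CPM in the control), and no other marker of the list passed 11.9 CPM in a library. Dendritic cell markers (7 of 7) summed to 231 to 251 CPM in the knockout and 206 to 256 CPM in the control, of which Cd83 alone gave 196 to 244 CPM over the 6 libraries, and no other marker of that list passed 6.13 CPM. T and NK cell markers (10 of 10) stood at 4.11 to 8.24 CPM in the knockout against 2.69 to 4.46 CPM in the control. Neutrophil markers (9 of 10) stood at 5.38 to 15.2 CPM in the knockout against 2.37 to 4.84 CPM in the control. Mesothelial and stromal markers (8 of 8) and erythroid and platelet markers (7 of 7) reached at most 9.43 CPM in any library. Epx, Prg2 and Ear1, the eosinophil genes of their list, were not analysed here, so the sum of that list says little about eosinophils. Mpo was not analysed either, and no marker in the table was at 0 in all 6 libraries. The part of these other cells in the values below was not tested, and in bulk RNA fewer cells of a type and less RNA per cell cannot be told apart.

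Levels between genes were compared on the authors' FPKM scale, which divides by gene length. The 34 genes spanned a wide range, with a median of 45.8 FPKM, against 4.57 FPKM over all 12786 tested genes. Of the 34, 5 lay in the top 1% of tested genes, 12 in the top 5% and 31 above the median. By the mean over all 6 libraries, the saposin precursor Psap, which gives rise to activators of sphingolipid breakdown, was highest. It had 1042 ± 14.4 FPKM in the knockout and 1096 ± 52.9 FPKM in the control (SD, n = 3 each). Laptm5, a lysosomal membrane protein of blood-derived cells, followed at 1042 ± 44.6 FPKM in the knockout and 894 ± 99.2 FPKM in the control (SD, n = 3 each). Lamp1, a glycoprotein that lines the lysosomal membrane, and the alpha-mannosidase Man2b1 came next, with means over all 6 libraries of 436 and 411 FPKM. Together these 4 genes made up 59.1% of the summed FPKM of the 34. At the other end, Galc, which splits galactosylceramide, Arsb, a sulfatase of dermatan sulfate, and the tetraspanin Cd63 had 3.13, 4.09 and 4.20 FPKM and lay below the median of tested genes. This order depends on the gene length used, which was 14879 bases for Galc. On the CPM scale Galc averaged 41.5, above Sgsh (31.2) and Idua (30.8). The lowest count of any of the 34 in a library was 142, for Cd63.

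**Figure D1:**
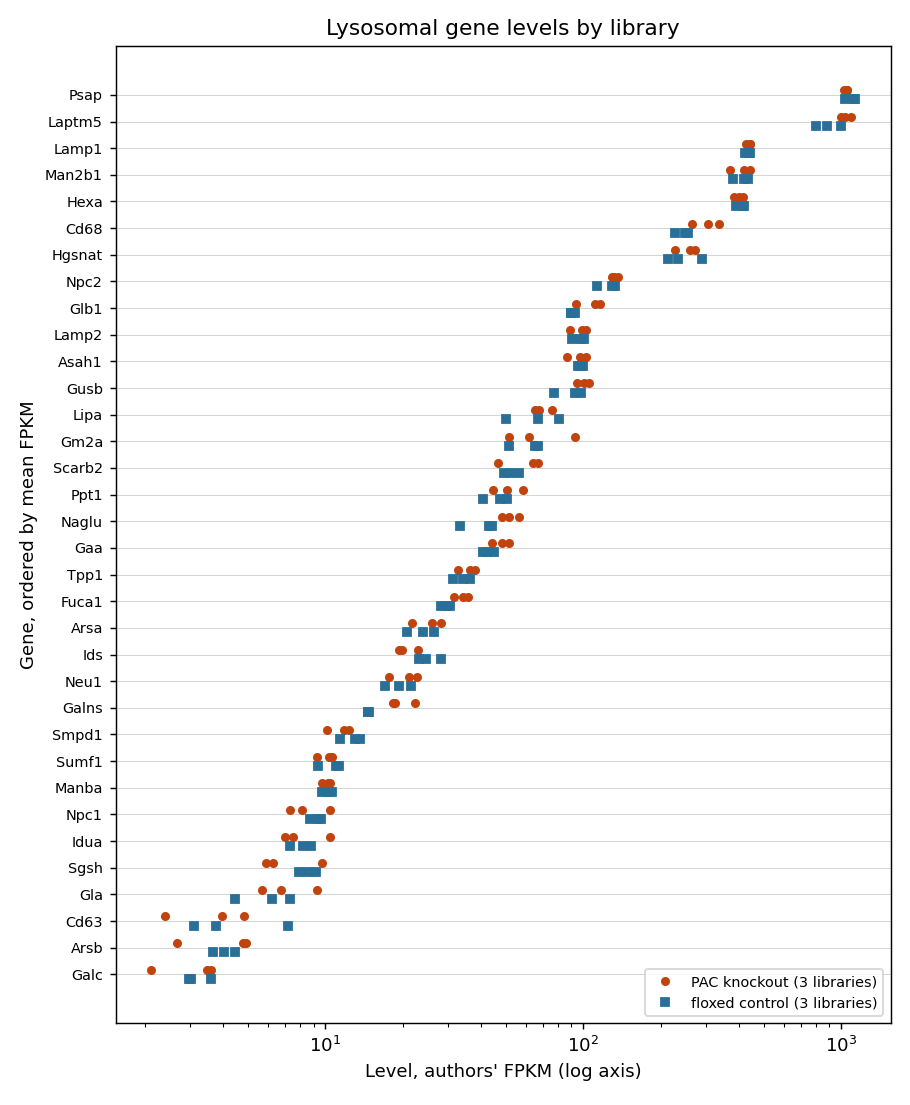
Level of each of the 34 genes in FPKM (log axis), genes ordered by their mean; each circle is 1 of 3 PAC knockout libraries and each square 1 of 3 floxed control libraries. Levels run from 3.13 FPKM for Galc to 1069 FPKM for Psap, and circles and squares of most genes lie over each other.

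None of the 34 genes passed the test between the genotypes. With edgeR's quasi-likelihood test over all 12786 tested genes and Benjamini-Hochberg adjustment at 0.05, 0 of 34 were called, where 0% of all tested genes were called, and the smallest adjusted p among the 34 was 0.997. On unadjusted p-values under 0.05, 3 of the 34 stood on the higher side and 0 on the lower side, where 2.09% of tested genes lay on each side. DESeq2 and limma-voom also called 0 of the 34. Over all genes, edgeR had 534 at an unadjusted p under 0.05, DESeq2 called 22 and limma-voom 0. In the authors' deposited table the smallest adjusted p among the 34 was 0.880, for Galns.

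The direction was more often toward higher values in the knockout. Of the 34 genes, 23 had a higher and 11 a lower value in the knockout, where 48.8% of all tested genes had a higher one. The median log2 fold change of the 34 was 0.064, against -0.0079 over all tested genes. With 1 library left out, the median of the 34 ran from 0.043 to 0.12, and it was 0.12 without PAC knockout replicate 3. The size of these differences was small: they ran from -0.32 for Cd63 to 0.43 for Galns on the log2 scale.

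The data set narrow limits on most of these genes. The 95% interval of the fold change, taken gene by gene without adjustment, lay within 1.5-fold either way for 27 of the 34, where 38.4% of tested genes had such an interval. It lay within 2-fold either way for 33 of the 34, where 65.2% of tested genes did; Cd63 was the exception. Among tested genes with a mean of at least 5 FPKM, which have more counts, the shares were 66.1% and 90.1%. The 7 genes whose interval reached beyond 1.5-fold were Gla, Naglu, Sgsh, Galns, Gm2a, Cd63 and Cd68.

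**Figure D2:**
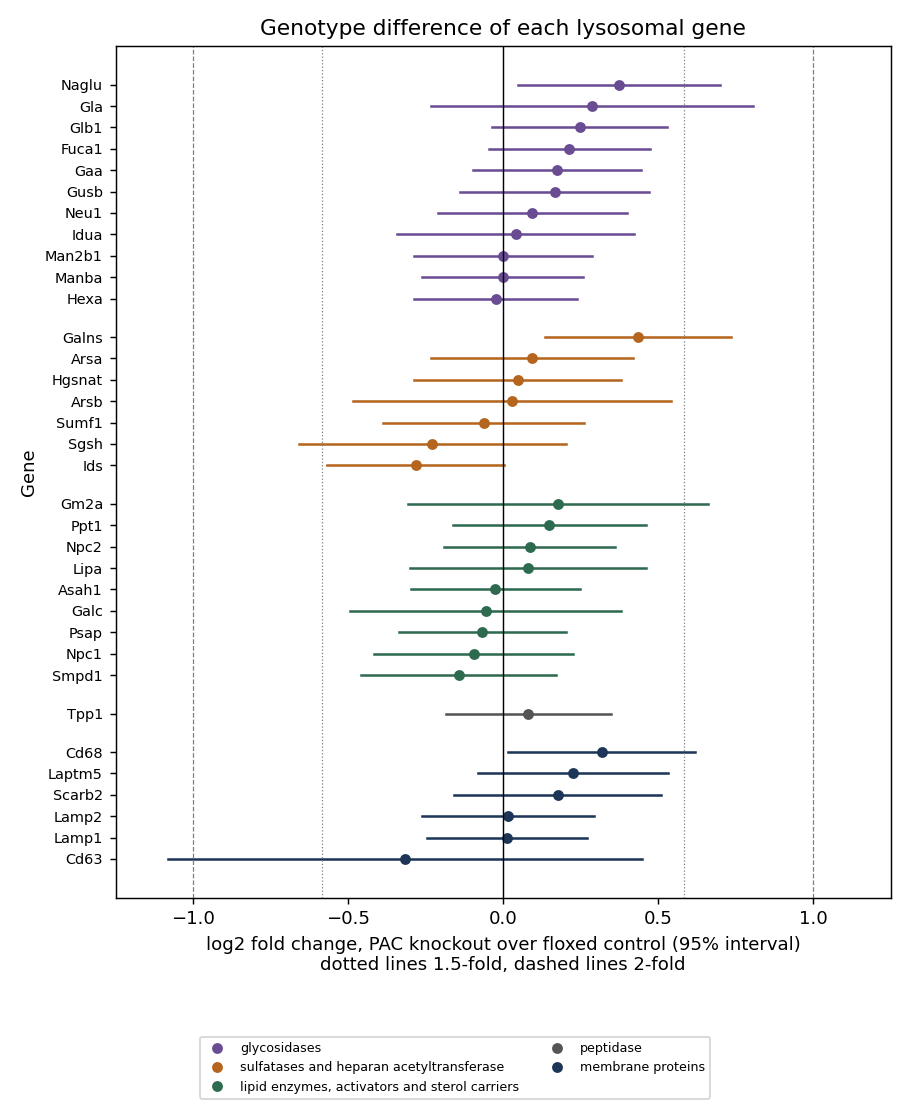
log2 fold change of each gene, PAC knockout over floxed control, as a dot with its 95% interval, grouped and coloured by role; dotted lines mark 1.5-fold and dashed lines 2-fold. The interval of Cd63 alone crosses a dashed line, and the dot farthest to the right is Galns at 0.43.

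Glycosidases, which cut single sugars from the ends of glycans, had higher values in the knockout for 9 of 11 genes, and 0 of 11 passed the test. Their median log2 fold change was 0.17. Naglu, which removes N-acetylglucosamine from heparan sulfate, had 123, 114 and 134 CPM in the knockout libraries against 77.3, 102 and 107 CPM in the control libraries. The groups did not overlap, although 1 control library stood well below the other two. The log2 fold change was 0.37 (SE 0.15; edgeR unadjusted p = 0.0278, adjusted p = 0.997), and it was 0.24 without floxed control replicate 1.

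Glb1, the acid beta-galactosidase, had 314, 297 and 253 CPM in the knockout against 236, 239 and 252 CPM in the control. The groups did not overlap, but the lowest knockout library and the highest control library stood at 252.9 and 252.5 CPM. Its log2 fold change was 0.25 (SE 0.13). Fuca1, the lysosomal fucosidase, had 105, 99.5 and 92.9 CPM in the knockout against 87.4, 81.8 and 87.5 CPM in the control, a log2 fold change of 0.21 (SE 0.12), again without overlap. Gla, the alpha-galactosidase of globotriaosylceramide, had 27.3, 19.5 and 16.7 CPM in the knockout against 20.8, 18.0 and 13.2 CPM in the control. Its groups overlapped, and its log2 fold change of 0.29 (SE 0.24) was 0.063 without PAC knockout replicate 1, the library with the highest value.

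Man2b1 and Hexa, the most abundant glycosidases, and Manba had the smallest differences of this group. Man2b1 had 3015, 3152 and 2663 CPM in the knockout against 3047, 3007 and 2771 CPM in the control, a log2 fold change of 0.000795 (SE 0.13). Hexa, the alpha subunit of beta-hexosaminidase, ranged from 687 to 739 CPM in the knockout and from 697 to 764 CPM in the control, with a log2 fold change of -0.024 (SE 0.12). The beta-mannosidase Manba, at a much lower level, ranged from 60.7 to 65.4 CPM in the knockout and from 60.4 to 64.8 CPM in the control. In these 3 genes the knockout and control ranges overlapped. The acid glucosidase Gaa, which digests glycogen, and the glucuronidase Gusb had log2 fold changes of 0.17 each (SE 0.12 and 0.14), the sialidase Neu1 0.095 (SE 0.14) and the iduronidase Idua 0.040 (SE 0.17), all with overlapping groups. Gusb stood at 0.060 without floxed control replicate 1 and at 0.26 without floxed control replicate 3.

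Genes of the sulfatase group went both ways, with 4 of 7 higher and 3 of 7 lower in the knockout and 0 of 7 past the test. Their median log2 fold change was 0.030. Galns, which takes sulfate from keratan and chondroitin sulfate, had 53.1, 43.9 and 43.7 CPM in the knockout libraries against 33.8, 34.6 and 35.6 CPM in the control libraries. All 3 knockout libraries stood above all 3 control libraries, which lay close together. Its log2 fold change of 0.43 (SE 0.14) corresponds to a 1.35-fold higher level, with a 95% interval of 1.10-fold to 1.66-fold. Galns had the smallest p among the 34 (edgeR unadjusted p = 0.00851), and it did not pass (adjusted p = 0.997). With 1 library left out its log2 fold change ran from 0.34 to 0.49.

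Ids, which takes sulfate from iduronate in heparan and dermatan sulfate, was the only gene of the 34 whose knockout libraries all lay below the control libraries. It had 105, 87.1 and 90.5 CPM in the knockout against 125, 105 and 114 CPM in the control, a log2 fold change of -0.28 (SE 0.13; edgeR unadjusted p = 0.0529, adjusted p = 0.997). The separation was slight, since the highest knockout library and the lowest control library stood at 105.1 and 105.2 CPM. Sgsh, the sulfamidase of heparan sulfate, had 24.8, 38.1 and 23.4 CPM in the knockout against 30.5, 36.3 and 34.3 CPM in the control. PAC knockout replicate 2 held the highest value of all 6 libraries, and without it the log2 fold change of -0.23 (SE 0.19) became -0.48.

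Hgsnat, the membrane enzyme that acetylates heparan sulfate inside the lysosome, was the most abundant of this group at 252 ± 22.6 FPKM in the knockout and 245 ± 38.1 FPKM in the control (SD, n = 3 each). It had 769, 794 and 674 CPM in the knockout against 617, 686 and 862 CPM in the control. The control libraries alone spanned the whole knockout range, and the log2 fold change was 0.047 (SE 0.15). The cerebroside sulfatase Arsa (0.094, SE 0.15), Arsb (0.030, SE 0.23) and Sumf1 (-0.063, SE 0.15), the endoplasmic reticulum enzyme that activates all sulfatases, had overlapping groups as well.

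**Figure D3:**
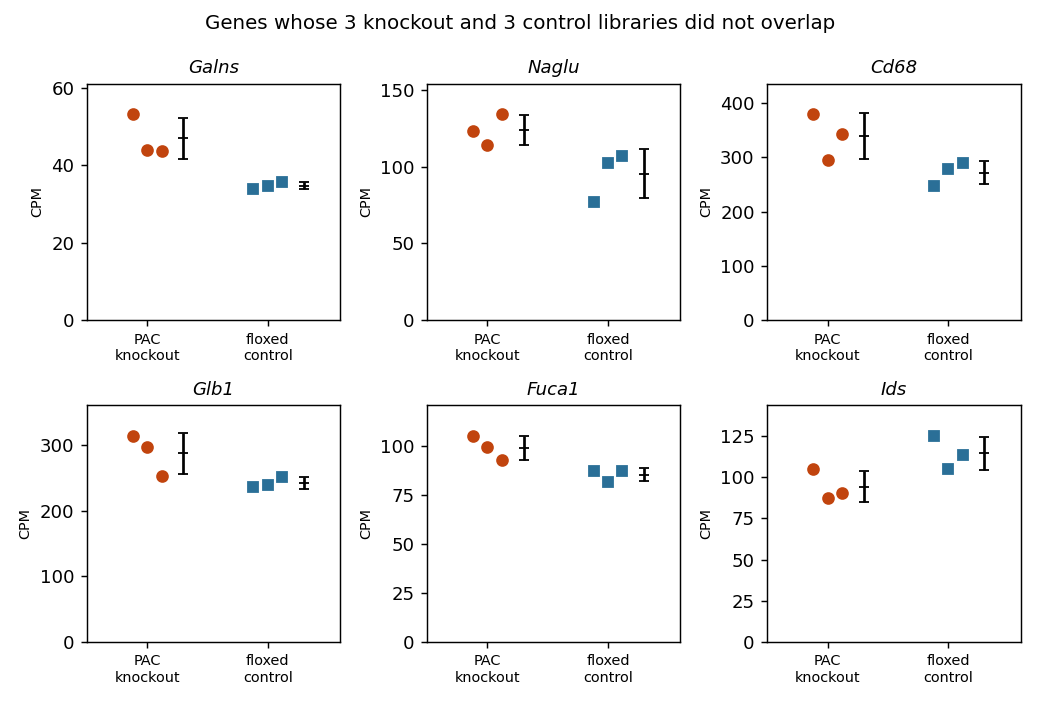
CPM of the 6 genes whose 3 PAC knockout and 3 floxed control libraries did not overlap; points are libraries, and the bars beside them show the mean and SD (n = 3). Galns, Naglu, Cd68, Glb1 and Fuca1 were higher in the knockout and Ids lower; in Glb1 and Ids the nearest libraries of the groups almost touch.

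The 6 genes lie at 8:122578242-122611463 (Galns, minus strand), 11:101070012-101077672 (Naglu, plus strand), 11:69664213-69666153 (Cd68, minus strand), 9:114401076-114474898 (Glb1, plus strand), 4:135920735-135940311 (Fuca1, plus strand) and X:70343069-70365084 (Ids, minus strand), by the coordinates of the deposited table (GRCm38). Counted over the 34, the groups did not overlap in 5 genes with the knockout higher, where 4.47% of tested genes were so placed, and in 1 gene with the knockout lower, where 4.86% were. The 5 are Galns, Naglu, Cd68, Glb1 and Fuca1. None of these passed the test across all genes.

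Genes of lipid breakdown and sterol transport were split, with 4 of 9 higher and 5 lower in the knockout. Their median log2 fold change was -0.025, 0 of 9 passed the test, and the groups overlapped in all 9. Psap had 2528, 2553 and 2590 CPM in the knockout against 2714, 2534 and 2788 CPM in the control, a log2 fold change of -0.067 (SE 0.12). Smpd1, the acid sphingomyelinase, had 35.5, 36.5 and 30.5 CPM in the knockout against 37.9, 33.98 and 41.2 CPM in the control, a log2 fold change of -0.14 (SE 0.14), which was -0.065 without PAC knockout replicate 3. In both genes the groups overlapped.

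The sterol carriers Npc1 and Npc2 pass cholesterol out of the lysosome. Npc1 had 70.4, 99.4 and 78.2 CPM in the knockout against 87.9, 92.2 and 84.7 CPM in the control, a log2 fold change of -0.095 (SE 0.15), with the single highest value in a knockout library. Npc2 had a log2 fold change of 0.085 (SE 0.13). Acid lipase Lipa, which frees cholesterol from its esters, ranged from 174 to 202 CPM in the knockout and from 130 to 213 CPM in the control, and its log2 fold change of 0.080 (SE 0.17) was -0.092 without floxed control replicate 1. Acid ceramidase Asah1 (-0.025, SE 0.12), Galc (-0.056, SE 0.20) and the thioesterase Ppt1 (0.15, SE 0.14) had overlapping groups. Gm2a, the activator that presents GM2 ganglioside to beta-hexosaminidase, stood out by 1 library: it had 345 CPM in PAC knockout replicate 3 and 186 to 250 CPM in the other 5 libraries. Its log2 fold change was 0.18 (SE 0.22) and turned to -0.11 without that library. The peptidase Tpp1 had 169, 175 and 152 CPM in the knockout against 164, 158 and 147 CPM in the control, a log2 fold change of 0.081 (SE 0.12).

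Of the 6 membrane proteins, 5 had higher and 1 a lower value in the knockout, and 0 of 6 passed the test. Their median log2 fold change was 0.096. Cd68, a heavily glycosylated protein of macrophage lysosomes that is used as a macrophage marker, had 379, 296 and 343 CPM in the knockout against 248, 278 and 290 CPM in the control. The groups did not overlap, and the log2 fold change was 0.32 (SE 0.14; edgeR unadjusted p = 0.0402, adjusted p = 0.997). Laptm5 had 3711, 3368 and 3514 CPM in the knockout against 2648, 2980 and 3433 CPM in the control, a log2 fold change of 0.23 (SE 0.14). Its lowest knockout library lay below floxed control replicate 3, so the groups overlapped, and its log2 fold change was 0.14 without floxed control replicate 1. Scarb2, the receptor that carries glucocerebrosidase to the lysosome, had a log2 fold change of 0.18 (SE 0.15), which was 0.086 without PAC knockout replicate 2 and 0.32 without PAC knockout replicate 3.

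Lamp1 was among the steadiest transcripts of the whole data set. It had 1067, 1047 and 1022 CPM in the knockout and 1034, 1050 and 1026 CPM in the control. The highest library was 1.04 times the lowest, and the SD of its log2 level over all 6 libraries was 0.023, where counting error alone would give 0.011. That was the second smallest SD among 12786 tested genes, rank 4 with the authors' size factors and rank 100 with library totals alone. Its partner Lamp2 ranged from 753 to 882 CPM in the knockout and from 769 to 850 CPM in the control, a log2 fold change of 0.016 (SE 0.13). Manba, Hexa and Psap ranked 41, 60 and 75 of the 12786 by the same measure. The median SD was 0.18 over the 34 genes, 0.27 over all tested genes and 0.19 over tested genes with at least 5 FPKM.

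Cd63, a tetraspanin of late endosomes and secretory granules, was the most variable of the 34. It had 13.2, 15.7 and 7.87 CPM in the knockout against 23.0, 12.4 and 10.3 CPM in the control, and the highest library was 2.92 times the lowest. Its log2 fold change of -0.32 (SE 0.34) became 0.11 without floxed control replicate 1. Granules of mast cells and eosinophils also carry Cd63. The markers of that list, without the eosinophil genes Epx, Prg2 and Ear1, summed to 252, 171 and 140 CPM in knockout replicates 1, 2 and 3. In control replicates 1, 2 and 3 they summed to 74.2, 56.8 and 147 CPM. Most of those sums is Hdc, and the part of these cells in the Cd63 values was not tested.

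Summed over the 34 genes, the libraries held 16957, 16522 and 16092 CPM in the knockout against 15272, 15513 and 16493 CPM in the control. Floxed control replicate 3 lay within the knockout range. The means were 16524 ± 432 CPM in the knockout and 15760 ± 647 CPM in the control (SD, n = 3 each). The difference was 764 CPM, of which Laptm5 alone gave 511 CPM. As a share of raw counts, without scaling, the 34 genes held 1.70%, 1.64% and 1.61% in the knockout. In the control they held 1.44%, 1.64% and 1.66%, so control replicates 2 and 3 lay within the knockout range on that measure. Gene by gene, PAC knockout replicate 1 held the highest value for 12 of the 34 and PAC knockout replicate 2 for 10, whereas floxed control replicate 1 held the lowest value for 12. PAC knockout replicate 3 held the highest value for 4 genes and the lowest for 8. The median deviation from each gene's own mean over the 6 libraries was 0.086, 0.085 and -0.027 in the knockout libraries and -0.014, -0.054 and 0.022 in the control libraries, on the log2 scale, so that PAC knockout replicate 3 lay below floxed control replicate 3.

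**Figure D4:**
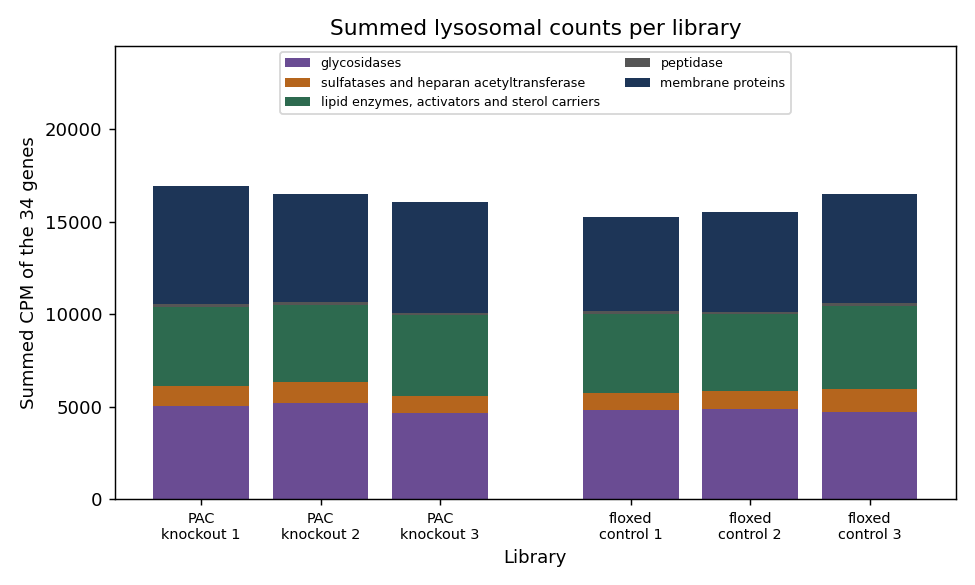
Summed CPM of the 34 genes in each library, stacked by role, PAC knockout libraries left and floxed control libraries right. Totals lie between 15272 and 16957 CPM, and floxed control replicate 3, at 16493 CPM, is within the knockout range.

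The other lysosomal genes of fixed lists were set beside these 34. Of 47 tested genes for further lysosomal enzymes and membrane proteins, 0 passed the test, and 30 were higher and 17 lower in the knockout. The median of that list was 0.063. The smallest p-values on the higher side belonged to Ggh, a folate hydrolase (0.68, SE 0.23), and Man2b2, a second acid alpha-mannosidase (0.32, SE 0.13). On the lower side they belonged to Mfsd12 (-0.53, SE 0.23) and Plbd1 (-0.51, SE 0.31). Cathepsins, the lysosomal proteases, had 10 of 11 tested genes higher and 0 past the test, with a median of 0.13; Ctsf stood at 0.33 (SE 0.15), Ctse at 0.84 (SE 0.63) and Ctsl at -0.079 (SE 0.17). The vacuolar ATPase had 7 of 17 higher and 0 past the test, with a median of -0.038; Atp6v1e1 stood at 0.18 (SE 0.14), Tcirg1 at 0.16 (SE 0.15), Atp6v0a2 at -0.24 (SE 0.16) and Atp6ap2 at -0.16 (SE 0.14).

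Genes that tag enzymes with mannose 6-phosphate or carry them to the lysosome had 7 of 18 higher and 0 past the test, with a median of -0.0076. Vps29 of the retromer stood at 0.26 (SE 0.14) and Gnptg, a subunit of the tagging enzyme, at 0.22 (SE 0.17). Sort1, sortilin, a sorting receptor for Psap, stood at -0.42 (SE 0.14) and Ap1g1, an adaptor subunit, at -0.15 (SE 0.12). The transcription factors and regulators of the TFEB family had 7 of 15 higher and 0 past the test, with a median of -0.099; Rragc stood at 0.13 (SE 0.14), Gpnmb at 0.64 (SE 0.91), Uvrag at -0.34 (SE 0.21) and Rptor at -0.21 (SE 0.17). Tfeb itself had 21.2 to 26.4 CPM in the knockout and 24.9 to 29.1 CPM in the control, a log2 fold change of -0.17 (SE 0.16). No difference between these lists and the 34 genes was tested.

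**Figure D5:**
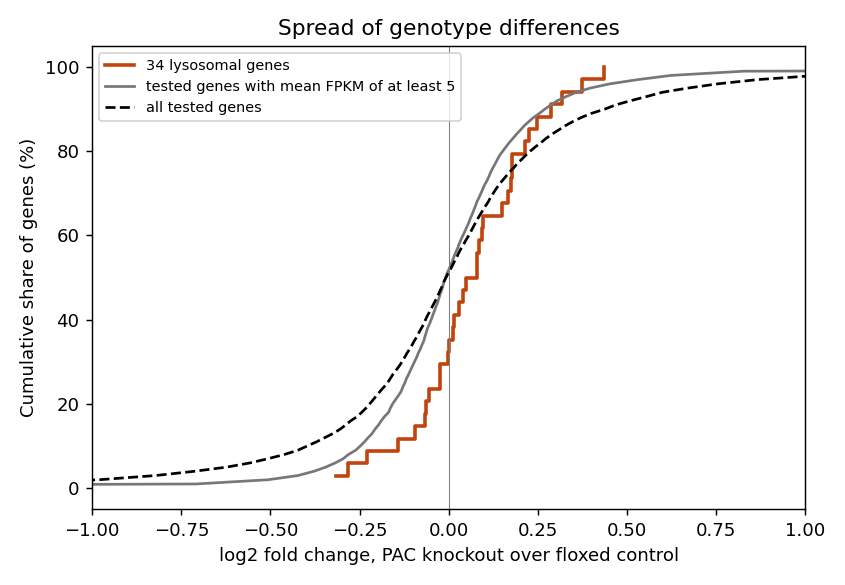
Cumulative share of genes (%) by log2 fold change, PAC knockout over floxed control, for the 34 lysosomal genes (steps), tested genes with at least 5 FPKM (grey line) and all 12786 tested genes (dashed, cut at -1 and 1). The steps lie to the right of both curves around 0, with a median of 0.064 against -0.0079 for all tested genes, and end at 0.43.

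Promoter sequence was the one feature looked at beyond expression, because the TFEB family binds the E-box CACGTG in lysosomal promoters. RefSeq promoter windows of GRCm38.p6, from 250 bases before to 50 bases after the start, were on hand for 30 of the 34 genes. Npc1, Asah1, Galns and Hgsnat had none and are left out of the counts and medians below. CACGTG, which reads the same on both strands, was found in the windows of 8 of the 30 genes, or 26.7%. Counted by window it was in 8 of 31, or 25.8%, and in 7.15% of all 32851 windows of that length. Those windows were taken without regard to expression here. The longer form TCACGTGA, which contains CACGTG and also reads the same on both strands, was found in 2 of the 30 genes, Gla and Sumf1. Counted by window it was in 6.45% of the 31 and in 0.974% of all windows. The 8 stretches are given here 5′ to 3′ on the strand of the gene, with up to 30 bases on each side of the outermost match and CACGTG in capitals.
Arsa (chr15:89477405-89477470, minus strand): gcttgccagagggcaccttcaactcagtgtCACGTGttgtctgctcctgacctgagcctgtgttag
Gaa (chr11:119267793-119267858, plus strand): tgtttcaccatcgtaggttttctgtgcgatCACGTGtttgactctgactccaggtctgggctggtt
Gla (chrX:134601164-134601255, minus strand): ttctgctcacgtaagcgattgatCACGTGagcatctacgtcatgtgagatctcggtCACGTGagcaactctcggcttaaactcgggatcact
Glb1 (chr9:114401000-114401065, plus strand): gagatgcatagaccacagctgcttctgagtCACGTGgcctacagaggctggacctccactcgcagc
Lamp1 (chr8:13159070-13159181, plus strand): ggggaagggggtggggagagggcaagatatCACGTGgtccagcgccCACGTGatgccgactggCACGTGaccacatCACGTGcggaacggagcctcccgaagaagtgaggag
Naglu (chr11:101069991-101070056, plus strand): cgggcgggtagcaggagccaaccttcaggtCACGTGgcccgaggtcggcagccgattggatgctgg
Sgsh (chr11:119355504-119355569, minus strand): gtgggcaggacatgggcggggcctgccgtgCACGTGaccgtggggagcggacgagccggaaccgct
Sumf1 (chr6:108185559-108185624, minus strand): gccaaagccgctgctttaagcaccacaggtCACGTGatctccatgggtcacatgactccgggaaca
Lamp1 held 4 matches, between 61 and 15 bases before its start, and Gla held 2. Of the 8 genes with a match, 6 were higher in the knockout, and their median log2 fold change was 0.13. Of the 22 without one, 15 were higher, with a median of 0.060. A match is a description of the letters in these windows and does not show binding.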

How the data were processed

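PolyA RNA of sorted large peritoneal macrophages was measured in 6 libraries, 3 per genotype, grouped by the labels. HISAT2 2.0.5, featureCounts 1.5.0-p3 and mm10 are named in the submitters' processing notes; annotation release and strand setting are not stated there. The deposited table gives raw counts per gene, which were tested. Its FPKM, made by the authors, served only to rank levels. The deposited normalised signal is the count divided by a size factor per library and served for 1 alternative. The authors' own log2 fold changes and p-values were copied, with no statement of their tool.

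Genes passing edgeR's default filter (12786) were scaled by TMM. edgeR 4.0.16 (R 4.3.3) was fitted across them with a robust quasi-likelihood model of genotype alone, and p-values were adjusted by Benjamini-Hochberg at 0.05. SEs came from the F statistic, whose spread is partly shared across genes. The SE of a steady gene can thus exceed its own spread. The 95% intervals came from the SE and its degrees of freedom. CPM were computed on scaled totals, and SDs of log2 levels on CPM + 0.5. Alternatives were RLE size factors, library totals, no filter and a filter of CPM 1 in 3 libraries. DESeq2 1.42.0 and limma 3.58.1's voom with quality weights per library were also run. Further alternatives were a non-robust prior, a replicate block, each library left out, both B cell-rich libraries left out, and a threshold of 0.1. Other scalings for Lamp1 were chosen after seeing the data. A count of 0 allows up to 0.154 to 0.190 CPM (3 counts, counting error only).

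The genes and lists were chosen with earlier results of these data known. Values by library are given for the 4 genes highest by FPKM, the 5 of smallest p in each direction, those whose groups did not overlap and the highest of each role. Gla, Gm2a, Lipa, Hexa, Manba, Lamp2, Tfeb, Aga, Timd4, Vsig4 and Aspa were added after their values were seen. In other lists, the 2 of smallest p in each direction are named. One result is not reported here.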

Additional observations from a re-analysis of the deposited data

How the results depend on the processing

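No alternative called any of the 34 genes: 0 passed under other scalings, filters, tools, the threshold of 0.1 or with any library left out. Over all genes, 38 were called with no filter, 22 by DESeq2 and 4 without both libraries rich in B cell RNA (PAC knockout replicate 1 and floxed control replicate 2), and 0 to 18 with 1 library left out (18 without floxed control replicate 3, 5 without PAC knockout replicate 1, 2 without floxed control replicate 1). The causes were not tested. With a replicate block, 0 of the 34 and 0 of all genes were called. Same-numbered libraries correlated at -0.048, -0.061 and 0.085 in their deviations from the group means. These values cannot settle whether the numbers pair the libraries, since other differences between libraries also enter them.

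The count of the 34 higher in the knockout ran from 21 to 24. The sign held in every alternative for 17 of the 34 genes, Galns, Naglu, Cd68, Glb1, Fuca1 and Ids among them. The sign of genes near 0 turned with RLE size factors Man2b1 (-0.00098), with library totals only Man2b1 (-0.0082), with no filter Manba (0.0021), with the stricter filter Manba (0.0023), in DESeq2 Man2b1 (-0.00098), in limma-voom Manba (0.0037), Arsb (-0.037), with the replicate block Man2b1 (-0.0016), Arsb (-0.015), and without both B cell-rich libraries Arsb (-0.18), Sumf1 (0.044), Hgsnat (-0.0092), Npc1 (0.043), Npc2 (-0.0039), Lamp2 (-0.073). With 1 library left out the sign turned for Hexa (-0.052 to 0.015), Manba (-0.033 to 0.027) and Man2b1 (-0.051 to 0.0697). It also turned for Idua (-0.15 to 0.15), Arsa (-0.0032 to 0.20), Arsb (-0.12 to 0.27), Hgsnat (-0.052 to 0.20) and Galc (-0.19 to 0.15). So it did for Asah1 (-0.085 to 0.048), Lipa (-0.092 to 0.25), Npc1 (-0.25 to 0.0098), Lamp1 (-0.00197 to 0.0301) and Lamp2 (-0.031 to 0.079). Genes farther from 0 turned as well, Gm2a (-0.11 to 0.35) and Cd63 (-0.54 to 0.11). The SD of Lamp1 was 0.025 with the authors' size factors and 0.065 with library totals only. Without a change of sign, values moved by over 1.5 times for Gla (0.063 to 0.44), Gusb (0.060 to 0.26), Naglu (0.24 to 0.47), Neu1 (0.023 to 0.19), Sgsh (-0.48 to -0.096), Sumf1 (-0.15 to -0.0086), Smpd1 (-0.21 to -0.065), Ppt1 (0.054 to 0.24), Psap (-0.10 to -0.035), Npc2 (0.022 to 0.15), Tpp1 (0.038 to 0.14), Scarb2 (0.086 to 0.32) and Laptm5 (0.14 to 0.33) with 1 library left out. Of the 34, 9 had under 1000 counts in some library.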

Other observations

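Beyond the 34 genes, 6 of 107 tested genes of the other lysosomal lists (5.61%) had an unadjusted edgeR p under 0.05, close to the 4.18% of all tested genes (Ggh, Man2b2, Aga, Ctsf, Mfsd12 and Sort1), and none passed the test across all genes (adjusted p = 0.997 each). Sort1, the sorting receptor sortilin, had 171, 193 and 220 CPM in the knockout against 264, 230 and 286 CPM in the control, without overlap. Man2b2, an acid alpha-mannosidase, had 349, 348 and 351 CPM in the knockout against 255, 261 and 322 CPM in the control, also without overlap. Aga, which cuts asparagine from the glycan stem of glycoproteins, had 20.9, 15.9 and 20.6 CPM in the knockout against 14.6, 13.8 and 14.1 CPM in the control, without overlap. Ggh, a folate hydrolase, had 76.1, 53.0 and 102 CPM in the knockout against 57.2, 38.9 and 48.5 CPM in the control, with overlap.

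Exons of 10 of the 34 genes share bases with exons of another gene in GENCODE M21 on GRCm38. With no strand setting stated, the counts of pairs on opposite strands are uncertain. Glb1 shares 5.49% of its exonic bases with Tmppe on the same strand, so that pair is uncertain under any strand setting. Tmppe averaged 12.5 CPM and Glb1 265 CPM. Among the partners with a level here, Cap1 stood above its gene, Ppt1 (413 CPM on average against 160 CPM for Ppt1), and 3.51% of the exonic bases of Ppt1 overlap with it. Arsb shares 32.3% of its exonic bases with Gm26527, whose level was not analysed here. Sgsh shares 21.6% of its exonic bases with Card14, which averaged 0.606 CPM. A Cd63 pseudogene, Cd63-ps, held 157 counts over all 6 libraries against 1470 for Cd63. Reads that match both copies were not examined, so these counts set no limit on the uncertainty of the Cd63 values.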
